A study of Mus musculus with 4 samples.

Results

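The tumour necrosis factor (TNF) superfamily was examined in 4 RNA sequencing libraries of fibro-adipogenic progenitors (FAPs), the stromal progenitors of skeletal muscle. The genes were those with symbols beginning in Tnfsf or Tnfrsf, with 1 exception, together with Tnf, Lta, Ltb, Ltbr, Cd40, Cd40lg, Cd27, Cd70, Fas, Fasl, Eda, Edar and Eda2r. They came to 44 of the 24421 gene symbols counted, 19 of them ligands and 25 receptors. DPPIV- FAPs and DPPIV+ FAPs were sorted as PI- CD31- CD45- Sca1+ cells from the same 2 mice, which gave n = 2 libraries per cell type. Both mice were wild type and, like every library here, had gone through 3 weeks of CSF1R inhibition, which depletes macrophages, and then 3 days on a regular diet. The study used adult mice of both sexes, the age of these mice is not given in the sources used here, and no untreated muscle is among the libraries. The animals are called mouse 1 and mouse 2, and paired values are given in that order unless stated.

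Ligands of this superfamily are mostly membrane proteins that act as trimers, on the cell surface or after a protease has shed them, and each binds 1 or a few receptors. Receptors with a death domain, such as Tnfrsf1a, Fas and Tnfrsf10b, can recruit adaptors that lead to caspase-8 or to RIPK1. Many of the others bind TRAF adaptors, most of which lead to the transcription factor NF-kappaB. In muscle, TNF and TWEAK (Tnfsf12) are known from inflammation and wasting, and stromal cells of many tissues carry the receptors for TNF, lymphotoxin and TWEAK.

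Between 18240110 and 20879405 reads were counted on genes per library. Levels are in CPM (reads scaled to a common library size), here with TMM factors. A gene was tested if it reached 2 CPM without these factors, on the plain library totals, in at least 2 libraries. Of the 44 family genes, 15 reached this level (5 ligands and 10 receptors), 23 had reads but stayed under it, and 6 had 0 reads in all 4 libraries. Pdgfra, which defines FAPs, had 1660 and 1480 CPM in the DPPIV- libraries and 1240 and 1160 CPM in the DPPIV+ libraries of mouse 1 and mouse 2, and Dpp4 had 89.8 and 39.7 CPM against 728 and 575 CPM. B cell, T cell and NK cell markers were at or near 0, with summed levels of at most 0.239 CPM over 4 B cell genes and 0.439 CPM over 7 T and NK cell genes. The 9 macrophage markers summed to 361 and 219 CPM in the DPPIV- cells and to 232 and 201 CPM in DPPIV+ FAPs. Of this, Lyz2 alone had 220 and 125 CPM against 131 and 121 CPM, with log2 ratios of -0.75 and -0.04. By edgeR's quasi-likelihood test, which called 17.2% of all genes lower and 15.9% higher, 6 of the 8 tested were lower. By DESeq2, which called 8.59% lower and 7.97% higher, 0 were lower. Of the 7 FAP markers, 4 were lower by both methods, Pdgfra among them. Ly6a (log2 fold change 0.58) and Cd34 (0.52) were higher by both, and Col3a1 passed in neither. Of 6 mural cell markers (121 and 123 CPM summed, against 51.2 and 63.5 CPM), 5 were lower by edgeR and 3 by DESeq2. The 3 tenocyte markers summed to 29.0 and 35.3 CPM against 60.1 and 105 CPM, and all 3 were higher by both methods. Of 6 endothelial markers, 3 were lower by edgeR and 0 by DESeq2, and Tek was higher by both. Xist had 153 and 166 reads in the libraries of mouse 1 and 1 and 3 reads in those of mouse 2, so values are given for each mouse.

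Promoters are shown for 4 family genes that differed between the cell types, the receptors Tnfrsf21 and Tnfrsf1b, which were higher in DPPIV+ FAPs, and the ligand Eda and its receptor Eda2r, which were both lower. The sequences are the 250 bases before the annotated start, 5′ to 3′ on the strand of the gene, from RefSeq on GRCm38.p6. Capitals mark the letters TATAAA.
Tnfrsf21 (chr17:43016305-43016554, plus strand): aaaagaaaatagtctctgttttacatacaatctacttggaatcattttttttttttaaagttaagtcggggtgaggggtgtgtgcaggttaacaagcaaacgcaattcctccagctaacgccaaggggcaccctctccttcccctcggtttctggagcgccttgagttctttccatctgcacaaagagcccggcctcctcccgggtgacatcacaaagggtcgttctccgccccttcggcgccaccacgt
Tnfrsf1b (chr4:145246871-145247120, minus strand): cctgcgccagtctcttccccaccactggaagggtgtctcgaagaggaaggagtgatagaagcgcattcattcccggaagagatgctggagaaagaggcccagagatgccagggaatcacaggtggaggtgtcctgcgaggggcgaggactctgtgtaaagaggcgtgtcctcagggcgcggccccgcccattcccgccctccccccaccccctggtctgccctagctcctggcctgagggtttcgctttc
Eda (chrX:99975356-99975605, plus strand): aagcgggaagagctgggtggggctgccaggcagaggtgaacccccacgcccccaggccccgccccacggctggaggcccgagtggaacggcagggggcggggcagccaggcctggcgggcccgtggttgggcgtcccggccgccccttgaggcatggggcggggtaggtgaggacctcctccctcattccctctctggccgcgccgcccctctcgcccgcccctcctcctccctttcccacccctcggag
Eda2r (chrX:97377210-97377459, minus strand): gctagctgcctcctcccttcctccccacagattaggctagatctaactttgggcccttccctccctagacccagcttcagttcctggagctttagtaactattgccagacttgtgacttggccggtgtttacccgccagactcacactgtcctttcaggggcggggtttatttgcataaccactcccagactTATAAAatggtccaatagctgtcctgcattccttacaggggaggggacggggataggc
On both strands, these windows were searched for the kappaB motif, the AP-1 motif TGANTCA, the CRE motif TGACGTCA and TATAAA. The only match was TATAAA in Eda2r, beginning 58 bases before the start. Among all 32851 promoter windows of this length, 7.25% held the kappaB motif, 6.75% the AP-1 motif, 1.55% the CRE motif and 12.4% TATAAA. The windows differed in composition, with 19 CpG dinucleotides and 75.6% G and C in Eda, 12 CpG in each of Tnfrsf21 (50.4% G and C) and Tnfrsf1b (62.8%), and 4 CpG in Eda2r (53.2%), where the median over all windows was 6 CpG and 52.4%. RefSeq windows were at hand for 35 of the 44 genes, and Tnfsf9 was not among them.

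In DPPIV+ FAPs, the ligand Tnfsf9 and the receptors Tnfrsf21 and Tnfrsf1b were higher than in DPPIV- FAPs, while the ligand Eda and the receptors Eda2r, Tnfrsf10b and Tnfrsf12a were lower. These 7 of the 15 genes tested, where 33.0% of all genes passed, had an adjusted p under 0.05 in edgeR's quasi-likelihood test with mouse as a block and Benjamini-Hochberg adjustment over 11588 genes. The 3 higher genes were 20.0% of the family genes tested, against 15.9% of all genes, and the 4 lower genes were 26.7% of them, against 17.2% of all genes. The median log2 fold change was -0.14 over the 15 family genes and -0.002 over all genes. Mouse 1 and mouse 2 had the same direction for all 7. With DESeq2, 3 were higher (background 7.97%) and 2 lower (background 8.59%), and the genes it left out were Tnfrsf10b and Tnfrsf12a. The moderation in edgeR gave each gene the spread of genes of similar abundance, and very small p-values rest on that. In sorted populations measured in bulk, fewer cells that express a gene and less RNA per cell cannot be told apart.

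**Figure D1:**
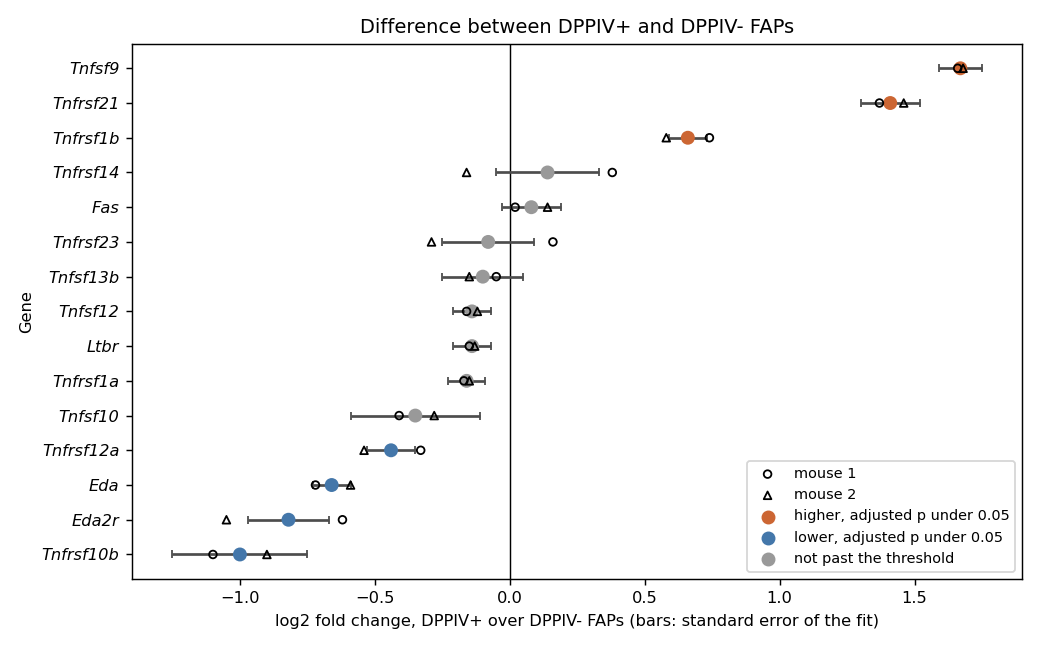
Log2 fold change (x axis, DPPIV+ over DPPIV- FAPs) of each of the 15 family genes tested (y axis), with the fitted value and its standard error (large points and bars) and the ratio in mouse 1 (open circles) and mouse 2 (open triangles). Tnfsf9 and Tnfrsf21 lie farthest to the right, at 1.67 and 1.41, and Tnfrsf10b farthest to the left.

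Among the 5 ligands tested, Tnfsf9 had the largest difference. It encodes 4-1BBL, a co-stimulatory ligand of activated T cells. The level of Tnfsf9 was 25.2 and 22.7 CPM in the DPPIV- libraries and 79.9 and 72.7 CPM in the DPPIV+ libraries. Both DPPIV+ libraries were above both DPPIV- libraries, and the mice differed little within a cell type. The log2 fold change was 1.67 (standard error 0.08, adjusted p = 2.04e-101, edgeR's quasi-likelihood test), a 3.19-fold higher level, with ratios of 1.66 in mouse 1 and 1.68 in mouse 2. Tnfsf9 (ENSMUSG00000035678.8) lies on chromosome 17 of GRCm38 from 57105325 to 57107757 and shares 192 of its 1290 exon bases with Gm11110 on the opposite strand, for which 15 to 20 reads were counted per library. Its receptor gene, Tnfrsf9, had 8 and 0 reads in DPPIV- FAPs and 2 and 3 reads in DPPIV+ FAPs, so the receptor was hardly detectable in either cell type.

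Eda, which encodes ectodysplasin, a ligand known from the development of hair, teeth and sweat glands, was lower in DPPIV+ FAPs. Its levels were 91.7 and 76.3 CPM in the DPPIV- libraries and 55.8 and 50.6 CPM in the DPPIV+ libraries, with no overlap between the cell types. The log2 fold change was -0.66 (standard error 0.07, adjusted p = 8.56e-21, edgeR's quasi-likelihood test). Of its 2 receptors, Edar had 1 read in 2 libraries and 0 in the others, and only Eda2r, which binds the A2 form of ectodysplasin, was measurable. Eda2r had 15.1 and 14.1 CPM in the DPPIV- libraries and 9.89 and 6.80 CPM in the DPPIV+ libraries, again without overlap (log2 fold change -0.82, standard error 0.15, adjusted p = 1.37e-07 by edgeR). Gene counts do not separate the forms of Eda, and both genes lie on chromosome X, Eda (ENSMUSG00000059327.9) from 99975606 to 100400762 and Eda2r (ENSMUSG00000034457.10) from 97333840 to 97377216. Edaradd, the adaptor of Edar, had between 0 and 4 reads per library.

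The other 3 ligands tested did not pass the threshold. Tnfsf12, which encodes TWEAK, had 57.3 and 51.8 CPM in the DPPIV- libraries and 51.3 and 47.5 CPM in the DPPIV+ libraries (fitted log2 fold change -0.14, standard error 0.07, adjusted p = 0.121 in edgeR). In the annotation, 731 of its 1515 exon bases belong also to the readthrough gene Tnfsfm13, which had only 5 to 16 reads per library, and how reads of the shared bases were assigned is not given. Tnfsf13b, the B cell survival factor BAFF, had 11.9 and 8.95 CPM against 11.4 and 8.06 CPM (log2 fold change -0.10, standard error 0.15). Tnfsf10, the death ligand TRAIL, had 5.02 and 3.07 CPM against 3.78 and 2.52 CPM (log2 fold change -0.35, standard error 0.24). For both genes, the mice differed more than the cell types did.

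Per kilobase of exon, which allows genes to be compared with each other, the order of the ligands differed between the cell types on full exon lengths. In DPPIV- FAPs, Tnfsf12 had 36.0 ± 2.57 CPM per kb (SD, n = 2), Tnfsf9 had 18.6 ± 1.36 and Eda had 12.3 ± 1.60. In DPPIV+ FAPs, Tnfsf9 came first with 59.1 ± 3.93 CPM per kb, before Tnfsf12 with 32.6 ± 1.75 and Eda with 7.79 ± 0.531. Within each library, the level of Tnfsf9 per kb over that of Tnfsf12 was 0.516 and 0.515 in DPPIV- FAPs and 1.83 and 1.80 in DPPIV+ FAPs. Tnfsf9 over Eda was 1.45 and 1.57 in DPPIV- FAPs and 7.58 and 7.59 in DPPIV+ FAPs. These ratios do not depend on how the libraries are scaled to each other. Of the 1515 exon bases of Tnfsf12, 731 are shared with Tnfsfm13, and how their reads were assigned is not given. The order of Tnfsf9 and Tnfsf12 in DPPIV+ FAPs is therefore uncertain. The change of each ratio between the cell types does not depend on the lengths.

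**Figure D2:**
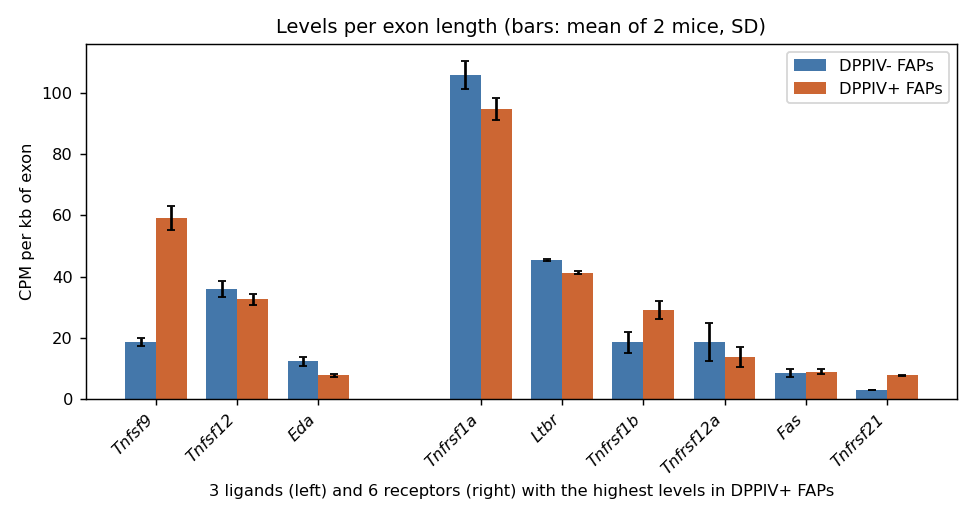
Mean level per exon length (y axis, CPM per kb) of the 3 ligands and 6 receptors with the highest levels in DPPIV+ FAPs (x axis), for DPPIV- FAPs (blue) and DPPIV+ FAPs (orange), with the SD over 2 mice. Tnfsf12 is the highest of these ligands in DPPIV- FAPs and Tnfsf9 in DPPIV+ FAPs, and Tnfrsf1a is the highest receptor in both. Lengths include the exon bases that Tnfsf12 shares with Tnfsfm13, so the order of Tnfsf9 and Tnfsf12 in DPPIV+ FAPs is uncertain.

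Among the 10 receptors tested, Tnfrsf21 showed the largest rise. It encodes death receptor 6, known from the nervous system and from T and B cells. It had 12.3 and 11.9 CPM in the DPPIV- libraries and 31.7 and 32.7 CPM in the DPPIV+ libraries, so each pair of mice lay close together and the cell types were far apart. The log2 fold change was 1.41 (standard error 0.11, adjusted p = 1.08e-38, edgeR's quasi-likelihood test), which is 2.67-fold. Tnfrsf21 (ENSMUSG00000023915.5) spans 43016555 to 43089189 on chromosome 17.

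Of the receptors for TNF itself, Tnfrsf1b rose and Tnfrsf1a did not pass the threshold. Tnfrsf1a, the death domain receptor that is present on most cells, was the most abundant family gene, with 283 and 266 CPM in the DPPIV- libraries and 252 and 239 CPM in the DPPIV+ libraries. Its log2 fold change of -0.16 (standard error 0.07) missed the threshold, with an adjusted p of 0.0522 in edgeR, 0.362 in DESeq2 and 0.0358 in edgeR with robust moderation (33.2% of all genes called). Tnfrsf1b, the receptor without a death domain, which binds TRAF2, had 61.5 and 79.4 CPM in the DPPIV- cells and rose to 103 and 119 CPM in DPPIV+ FAPs. The log2 fold change was 0.66 (standard error 0.07, adjusted p = 3.51e-22 in edgeR), 0.74 in mouse 1 and 0.58 in mouse 2, and the cell types did not overlap. Within each library, Tnfrsf1b per kb was 0.148 and 0.203 of Tnfrsf1a in DPPIV- FAPs and 0.277 and 0.337 of it in DPPIV+ FAPs. Tnfrsf1b (ENSMUSG00000028599.10) lies on chromosome 4 from 145213463 to 145246870. Macrophages, too, express Tnfrsf1b. Their markers summed to 361 and 219 CPM in DPPIV- FAPs against 232 and 201 CPM, with Lyz2 the largest part. The part of macrophages in the level of Tnfrsf1b was not tested.

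Tnfrsf12a, which encodes the TWEAK receptor Fn14 and is known to be induced in injured tissue, was lower in DPPIV+ FAPs. It had 27.4 and 44.5 CPM in the DPPIV- libraries and 21.8 and 30.7 CPM in the DPPIV+ libraries. The cell types overlapped, since the values of mouse 2 were above those of mouse 1 in both, and the difference is one within each mouse (log2 ratios of -0.33 and -0.54). The fitted log2 fold change was -0.44 (standard error 0.09, adjusted p = 3.43e-06 in edgeR). The adjusted p was 0.0568 in DESeq2 and 0.275 in edgeR without the mouse block.

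Tnfrsf10b, the receptor through which TRAIL induces cell death in mice, had 85 and 84 reads in DPPIV- FAPs and 34 and 42 reads in DPPIV+ FAPs, that is 4.06 and 4.29 against 1.89 and 2.30 CPM. In edgeR it fell by 1.00 in log2 units (standard error 0.25, adjusted p = 0.000425), while DESeq2 gave an adjusted p of 0.153. Stretches of up to 405 bases of its transcripts are at least 97% identical to other transcripts, among them Gm15574, which the table does not list. Tnfrsf22 and Tnfrsf23, mouse receptors that bind TRAIL without signalling death, lie beside each other on chromosome 7. They share 74 identical bases, so reads may be split between them. A stretch of 766 bases of Tnfrsf22 is also at least 97% identical to many other transcripts, among them Gm47357, which was not counted. Tnfrsf23 had 5.93 and 9.76 CPM in the DPPIV- libraries and 6.61 and 8.01 CPM in the DPPIV+ libraries (fitted log2 fold change -0.08, standard error 0.17). Tnfrsf22 had 22 and 30 reads in DPPIV- FAPs and 41 and 37 reads in DPPIV+ FAPs, that is 1.05 and 1.53 against 2.28 and 2.03 CPM. It just missed the level for the test, which is set on CPM without TMM factors. The ratio of its pooled CPM was 1.68 (exact 95% interval of the counting error 1.17 to 2.43). In edgeR without the filter, its adjusted p was 0.126.

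The remaining 3 receptors tested did not pass the threshold. Ltbr, the lymphotoxin beta receptor, which activates the non-canonical NF-kappaB pathway in lymphoid stroma, had 106 and 108 CPM in the DPPIV- libraries and 96.2 and 98.1 CPM in the DPPIV+ libraries (fitted log2 fold change -0.14, standard error 0.07, adjusted p = 0.0928 in edgeR). Fas, the receptor of Fas ligand, had 19.3 and 15.8 CPM against 19.5 and 17.5 CPM (log2 fold change 0.08, standard error 0.11). Tnfrsf14, which binds LIGHT (Tnfsf14) and the inhibitory receptor BTLA, had 6.21 and 5.27 CPM against 8.11 and 4.72 CPM, with opposite directions in the mice (log2 ratios of 0.38 and -0.16).

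**Figure D3:**
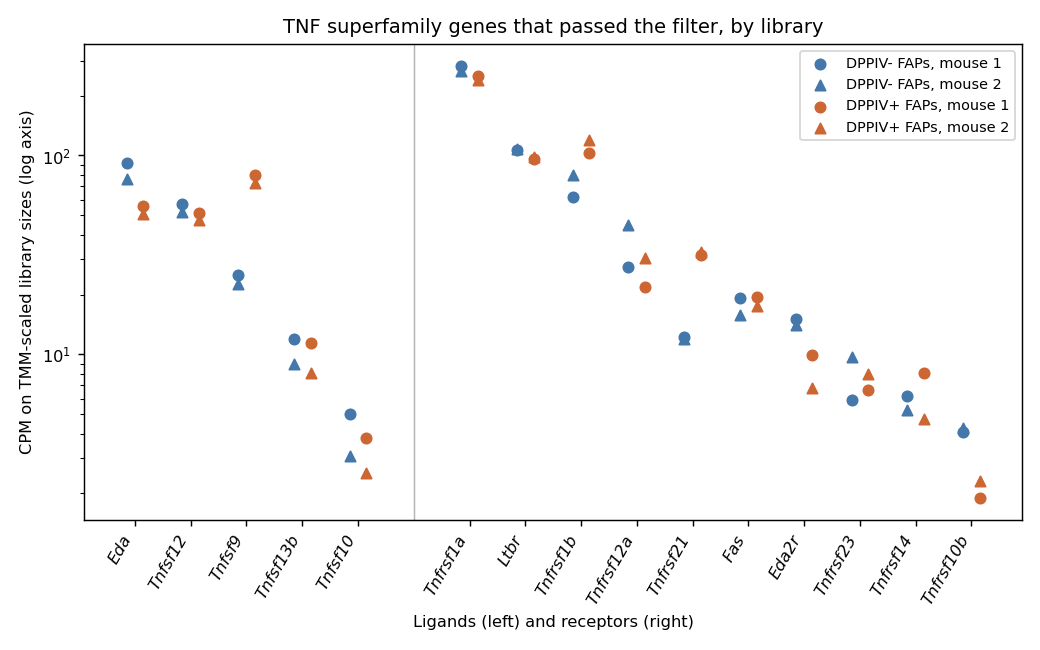
Level of each of the 15 family genes tested (x axis, 5 ligands left and 10 receptors right) in each library (y axis, CPM on a log axis), with DPPIV- FAPs in blue, DPPIV+ FAPs in orange, circles for mouse 1 and triangles for mouse 2. The orange points of Tnfsf9, Tnfrsf1b and Tnfrsf21 lie above both blue points, and those of Tnfrsf12a overlap with them.

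Per kilobase of exon, the receptors of DPPIV- FAPs began with Tnfrsf1a (106 ± 4.52 CPM per kb, SD, n = 2) and Ltbr (45.4 ± 0.314). Tnfrsf12a (18.6 ± 6.24) and Tnfrsf1b (18.5 ± 3.32) followed and could not be ordered, and Fas had 8.52 ± 1.19, before Tnfrsf14 with 3.99 ± 0.465 and Tnfrsf21 with 2.94 ± 0.0724. In DPPIV+ FAPs, Tnfrsf1a (94.7 ± 3.55) and Ltbr (41.3 ± 0.587) were again first, then Tnfrsf1b (29.0 ± 2.90), Tnfrsf12a (13.6 ± 3.26), Fas (8.98 ± 0.703) and Tnfrsf21 (7.84 ± 0.169). Summed over all 25 receptors, the level was 556 ± 11.9 CPM in the DPPIV- cells and 560 ± 6.81 CPM in DPPIV+ FAPs, and over all 19 ligands it was 182 ± 20.3 and 196 ± 15.8 CPM. Within mouse 1 and mouse 2, the receptor sum went from 548 to 556 and from 564 to 565 CPM and the ligand sum from 197 to 207 and from 168 to 185 CPM, from DPPIV- to DPPIV+ FAPs. Both sums were higher in the DPPIV+ library of each mouse, the values of the cell types overlapped across mice, and the sums were not tested.

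Across the 15 genes, 9 had CPM values that did not overlap between the cell types, against 56.3% of all genes tested. In 13 of the 15 genes, both mice differed in the same direction, against 71.3% of all genes tested, and the exceptions were Tnfrsf14 and Tnfrsf23. The mouse term of the same model was past the threshold for 5 of the 15 genes, against 8.98% of all genes. Tnfrsf12a (log2 difference of mouse 2 from mouse 1 of 0.60, adjusted p = 1.02e-09 in edgeR), Tnfrsf1b (0.28, adjusted p = 0.000572) and Tnfrsf23 (0.51, adjusted p = 0.0437) were higher in mouse 2. Tnfsf13b (-0.45, adjusted p = 0.0369 in edgeR) and Eda (-0.21, adjusted p = 0.0287) were higher in mouse 1. DESeq2 called 1 of these 5 and edgeR with RLE size factors 2. The shares of all genes called between the mice under these settings are not given here, so the counts have no background.

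The 23 genes with reads but under the level for the test held between 1 and 139 reads over the 4 libraries. Tnfsf11, which encodes RANKL, the cytokine that drives osteoclast formation, had 10 and 18 reads in DPPIV- FAPs and 2 and 0 reads in DPPIV+ FAPs. With both mice pooled and the libraries scaled, its level was 12.5 times higher in DPPIV- FAPs, with an exact 95% interval of the counting error from 3.16 to 109. In edgeR's test on all 16873 genes with at least 1 read, where 23.1% of genes were past the threshold, its adjusted p was 0.00973, and it was the only one of the 23 to pass. Its receptor gene Tnfrsf11a had 41 and 18 reads in DPPIV- FAPs and 15 and 21 reads in DPPIV+ FAPs, so the cell types overlapped.

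Tnf had 54 and 36 reads in DPPIV- FAPs and 27 and 22 reads in DPPIV+ FAPs, a pooled ratio of 1.64 toward DPPIV- FAPs (exact 95% counting interval 1.15 to 2.38), and an adjusted p of 0.160 in edgeR without the filter. TNF is a main product of macrophages. Their markers, with Lyz2 the largest part, summed to 361 and 219 CPM in the same DPPIV- libraries and to 232 and 201 CPM in the DPPIV+ libraries. The part of macrophages in the counts of Tnf was not tested. Tnfsf8, the ligand of CD30, had 13 and 13 reads in DPPIV- FAPs against 4 and 2 reads in DPPIV+ FAPs (adjusted p = 0.118 in edgeR without the filter). Tnfsf13 (APRIL) had 17 and 15 reads against 24 and 18 reads, Tnfsf18 (GITR ligand) had 8 and 10 against 10 and 7 reads, and Tnfsfm13 had 8 and 6 against 16 and 5 reads. Tnfsf13 shares 983 of its 1637 exon bases with Tnfsfm13, so neither count stands for 1 gene alone.

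Of the receptors under the level for the test, Cd40 had 13 and 13 reads in DPPIV- FAPs and 8 and 10 reads in DPPIV+ FAPs. Tnfrsf26, beside Tnfrsf22 and Tnfrsf23 on chromosome 7, had 17 and 16 reads against 9 and 7 reads. Tnfrsf25 had 11 and 15 against 3 and 15 reads, Tnfrsf19 had 12 and 13 against 3 and 11 reads, and Tnfrsf18 had 14 and 7 against 3 and 10 reads. For these 3 receptors, DPPIV+ FAPs of mouse 1 were the lowest library and those of mouse 2 overlapped with DPPIV- FAPs. Tnfsf15, Ltb, Tnfsf14, Cd40lg, Lta, Tnfrsf9, Tnfrsf4, Tnfrsf13b, Edar and Tnfrsf8 had at most 8 reads in any library.

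Cd70, Fasl, Tnfsf4, Cd27, Tnfrsf13c and Tnfrsf17 had 0 reads in all 4 libraries, which allows up to 3 reads per library, or 0.143 to 0.167 CPM. The products of these 6 genes are known from activated T cells, B cells and antigen-presenting cells. B cell and T cell markers were at or near 0 in the same libraries, with Ms4a1, Cd3d, Cd3g and Cd8a at 0 reads in each of them. Markers of antigen-presenting cells were not all near 0. Macrophage markers summed to 201 to 361 CPM. Of 4 dendritic cell markers, Itgax had 66 to 223 reads per library, Cd209a at most 18, and Flt3 and Xcr1 at most 3.

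**Figure D4:**
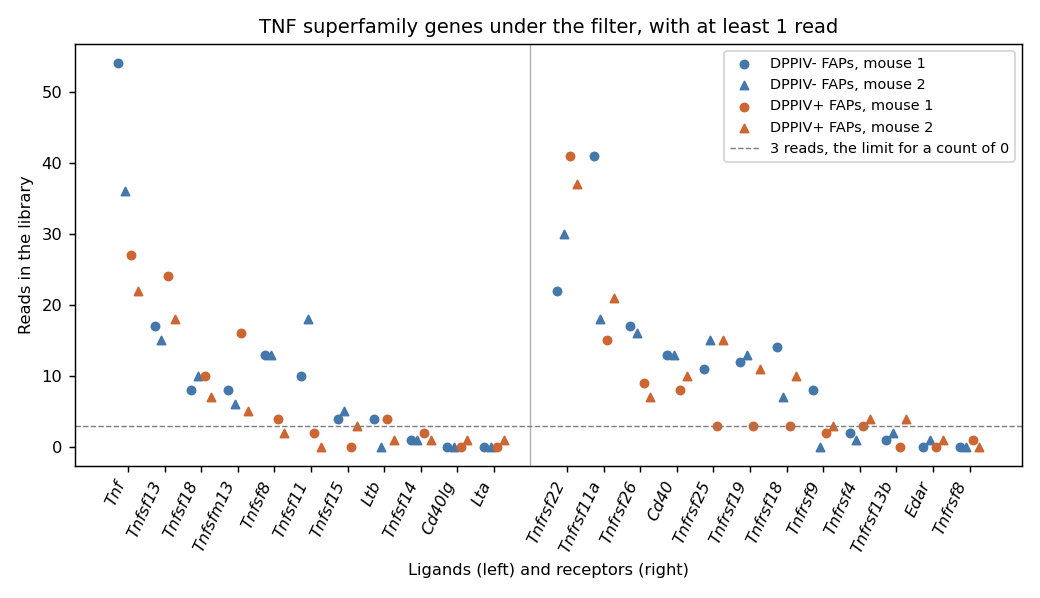
Reads counted (y axis) in each library for the 23 family genes with at least 1 read that were under the level for the test (x axis, ligands left and receptors right), with DPPIV- FAPs in blue, DPPIV+ FAPs in orange, circles for mouse 1 and triangles for mouse 2. Both DPPIV+ libraries of Tnfsf11 lie under the dashed line at 3 reads, with 10 and 18 reads in DPPIV- FAPs.

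Ligands and receptors were set beside each other in 26 known pairs. The list is not complete and leaves out Tnfsf10 with Tnfrsf22 and with Tnfrsf23. Tnfsf10 and Tnfrsf23 were both tested (log2 fold changes of -0.35 and -0.08), and neither passed. Of the 26 pairs, both sides were tested in 3, which are Eda with Eda2r, Tnfsf12 with Tnfrsf12a, and Tnfsf10 with Tnfrsf10b. In all 3 pairs, both fitted values were below 0, and only for Eda and Eda2r did both sides pass the threshold. In 9 pairs only the receptor was tested, such as Tnfrsf1a and Tnfrsf1b with Tnf and Lta, or Fas with Fasl. In 5 pairs only the ligand was tested, among them Tnfsf9 with Tnfrsf9 and Tnfsf13b with its 3 receptors. Neither side was tested in the other 9 pairs.

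Neighbouring family genes were not alike in level. Tnfsf9 stands on chromosome 17 beside Cd70 (57145997 to 57149777) and Tnfsf14 (57189492 to 57194177), which had 0 reads and 1 to 2 reads per library. Ltbr (chromosome 6, 125306571 to 125313885) and Tnfrsf1a (125349362 to 125362484) are near neighbours with log2 fold changes of -0.14 and -0.16, while Cd27, on the same stretch from 125232622 to 125237010, had 0 reads. Tnfrsf1b, with 1287 to 2163 reads per library, lies beside Tnfrsf8 (chromosome 4, 145267137 to 145315164), for which a single read was counted.

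The genes that act with or below these receptors were taken from 5 lists, of which 73 of 82 genes were tested. In all, 19 were higher and 12 lower in DPPIV+ FAPs, against the background of 15.9% and 17.2% of all genes tested, and their median log2 fold change was 0.05. DESeq2 called 12 higher and 6 lower, against 7.97% and 8.59% of all genes. Of the 18 adaptors tested, 1 rose and 3 fell. Traf4 had 25.1 and 27.4 CPM in the DPPIV- libraries and 11.8 and 13.6 CPM in the DPPIV+ libraries (fitted log2 fold change -1.05, standard error 0.11, adjusted p = 7.06e-20 in edgeR), Tnfaip8 fell by 0.53 and Traf2, the adaptor of Tnfrsf1b, fell by 0.34 on the log2 scale. DESeq2 did not call Tnfaip8 (adjusted p = 0.162) and Traf2 (adjusted p = 0.373). The adaptor that rose was Ripk1, with a log2 fold change of 0.19 (adjusted p = 0.0157 in edgeR and 0.442 in DESeq2).

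Of 19 parts of the NF-kappaB pathway, 6 rose, 1 fell and 12 did not pass, where 15.9% of all genes rose and 17.2% fell. DESeq2 called 4 higher and 0 lower, against 7.97% and 8.59% of all genes. Nfkbia, the inhibitor that is itself a target of NF-kappaB, had 179 and 202 CPM in the DPPIV- libraries and 316 and 271 CPM in the DPPIV+ libraries (fitted log2 fold change 0.62, standard error 0.07, adjusted p = 7.09e-19 in edgeR). Cyld, a deubiquitinase that restrains the pathway, had 37.2 and 32.8 against 53.5 and 55.9 CPM (log2 fold change 0.65), and Bcl3, a nuclear partner of p50 and p52, had 25.2 and 26.6 against 44.5 and 30.4 CPM (log2 fold change 0.52). Tnfaip3, which encodes the inhibitor A20, was the gene that fell (log2 fold change -0.28, adjusted p = 0.000147 in edgeR and 0.146 in DESeq2). In the death pathway, 1 of 12 genes rose (Daxx, log2 fold change 0.35) and 1 fell (Mlkl, the executor of necroptosis, -0.41), and DESeq2 called neither. Fadd, Casp8 and Cflar had fitted values of -0.14, -0.04 and -0.01.

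Among 6 genes that shed or process the ligands, or regulate that, 3 rose and 2 fell, where 15.9% of all genes rose and 17.2% fell. DESeq2 called 3 higher and 1 lower, against 7.97% and 8.59% of all genes. The sheddases Adam10 and Adam17 rose from 86.8 and 84.2 to 111 and 109 CPM and from 142 and 144 to 180 and 169 CPM (log2 fold changes of 0.36 and 0.29), and Timp3, which inhibits ADAM17, rose from 681 and 596 to 1050 and 944 CPM (0.65). Rhbdf2, which takes part in the maturation of ADAM17, had 5.69 and 5.11 CPM in the DPPIV- libraries and 2.5 and 2.3 CPM in the DPPIV+ libraries (fitted log2 fold change -1.17, standard error 0.24, adjusted p = 6.59e-06 in edgeR). Its relative Rhbdf1 was far more abundant, with 157 and 164 CPM in the DPPIV- libraries and 174 and 178 CPM in the DPPIV+ libraries. Rhbdf1 had a log2 fold change of 0.13 and did not pass. The maturation of ADAM17 was not measured. Furin fell by 0.17 in edgeR, and DESeq2 did not call it (adjusted p = 0.411).

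Genes known as targets of NF-kappaB moved in both directions. Of 18 tested, edgeR called 8 higher and 5 lower, against 15.9% and 17.2% of all genes. DESeq2 called 5 higher and 4 lower, against 7.97% and 8.59% of all genes. Among the 8, Cxcl1 (log2 ratios of 0.55 and -0.09) and Il6 (0.66 and -0.16) went opposite ways in mouse 1 and mouse 2. Vcam1 and Icam1, adhesion molecules for leukocytes, fell the most. Vcam1 had 87.4 and 89.3 CPM in the DPPIV- libraries and 23.4 and 28.6 CPM in the DPPIV+ libraries (fitted log2 fold change -1.77, standard error 0.07, adjusted p = 3.37e-121 in edgeR), and Icam1 had 133 and 128 against 53.6 and 51.3 CPM (-1.32). Cxcl13, the chemokine that draws B cells, had 19.0 and 15.4 CPM against 41.5 and 40.3 CPM (log2 fold change 1.25, standard error 0.09). These targets are regulated by other pathways as well, and TNF family signalling was not measured.

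**Figure D5:**
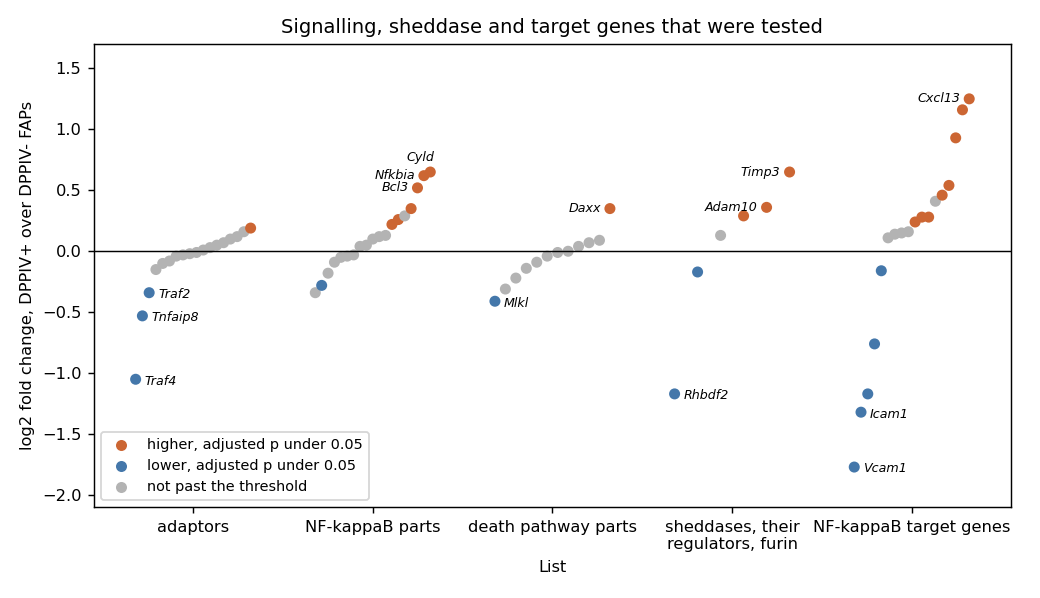
Log2 fold change (y axis, DPPIV+ over DPPIV- FAPs) of the 73 genes tested in the 5 lists (x axis), ordered by size within each list and coloured by the call. The genes with the largest changes in each list are named, and NF-kappaB targets run from -1.77 for Vcam1 to 1.25 for Cxcl13.

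Ngfr and Relt belong to the receptor superfamily but not to the genes chosen by symbol. Ngfr, the low-affinity neurotrophin receptor, had 51 and 40 reads in DPPIV- FAPs and 3 and 5 reads in DPPIV+ FAPs (2.44 and 2.04 against 0.167 and 0.274 CPM), with no overlap between the cell types. It reached the level for the test in DPPIV- FAPs alone, so no test of it is given. Schwann cells also express Ngfr. Of their markers, S100b had 5.54 and 4.6 CPM in DPPIV- FAPs against 2.11 and 2.14 CPM, and Sox10 had 1.43 and 0.358 against 0.444 and 0.823 CPM, and the part of glia was not tested. Relt had 14 to 24 reads per library.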

How the data were processed

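The authors aligned the reads to mm10 with STAR and tallied them per annotated gene with RnaReadCounter. The deposited table holds raw counts of 24421 gene symbols, without normalization. The annotation release and strand setting are not given in the sources used here. The labels name the tibialis anterior and a NEBNext kit, whereas the paper's methods name both hindlimbs and a TruSeq kit.

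From the counts, R 4.3.3 with edgeR 4.0.16 and DESeq2 1.42.0, and Python 3.11.15, were used. The 11588 genes that reached 2 CPM, on library totals without TMM factors, in 2 or more libraries were fitted with TMM factors, mouse and cell type, and tested two-sided with edgeR's quasi-likelihood F test and Benjamini-Hochberg adjustment. The standard error is the log2 fold change over the square root of F. The mouse number in the labels pairs the libraries, and the differences between the mice in the 2 cell types had a correlation of 0.44 across genes. CPM used TMM-scaled sizes of the genes kept, and log2 ratios per mouse a prior count of 0.125. Exon lengths, positions and overlaps are from GENCODE M21 on GRCm38, in which all 44 symbols matched. Similar transcripts were searched with BLAST 2.17.0 (97% identity, 50 bases). Intervals of ratios are exact binomial, and they and the limit of 3 reads cover counting error only, as reads carry no molecular identifiers. The fits were first tested on simulated counts.

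Alternatives were DESeq2, no mouse block, RLE factors, no filter, 2 CPM in 3 or more libraries, robust moderation, an adjusted p under 0.01 and each mouse alone. All family genes that passed the filter are named, others where a library had 10 reads, and in each signalling list the 3 largest changes past the threshold. Ripk1, Tnfaip3, Adam17, Furin, Rhbdf1, Fadd, Casp8 and Cflar were named after their values were seen. Family genes and lists were chosen with earlier results of these data known, and 1 gene that the symbols would include and some marker genes are not reported here.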

Additional observations from a re-analysis of the deposited data

How the results depend on the processing

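The 3 higher family genes stayed at 3 under all 7 alternatives that gave a test, and the 4 lower genes numbered 3 to 5 except with DESeq2, which called 2. Without the mouse block, 3 family genes were higher and 3 lower, and Tnfrsf12a alone lost its call. For the signalling lists, DESeq2 gave 12 higher and 6 lower genes, and the fit without the block 12 higher and 5 lower. Family genes called between the mice numbered 5 and fell to 1 with DESeq2, 2 with RLE factors and 2 at an adjusted p under 0.01. Shares of all genes are not given here for the mouse term under these settings, nor for the cell types without the mouse block. Those counts cannot be set against a background. None of the 15 fitted values changed direction under the alternatives with a test. With either mouse left out (1 library per cell type, no test), the 7 called genes kept their direction, and Tnfrsf14 and Tnfrsf23, which were not called, did not. The causes of these changes were not tested. With 2 mice, 1 residual degree of freedom per gene remains. At this depth 1 read is worth 0.0478 to 0.0555 CPM, and differences of the 29 family genes under the filter were not tested in the main comparison.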
